A study of Mus musculus with 7 samples.

Results

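The mast cell genes Kit, Cpa3, Cma1, Mcpt4, Tpsb2, Ms4a2, Fcer1a and Hdc were followed in bulk RNA-seq of sorted mouse skin cells. They were chosen by name as textbook genes of mast cells, and all 8 were found among the 25322 genes of the deposited table of normalized counts. All 8 also passed the filter on low values, at least 1 per M of the library total in at least 3 libraries, with 18141 genes in all. The Zfp750_KO group (4 libraries) is labelled ZNF750 fl/fl, written Zfp750 fl/fl in the titles, with Lrig1-CreERT2 +/- or Lrig1-CreER +/- and Rosa26 +/-, except 1 library given as Rosa26 -/-. The control group (3 libraries) carries the same Cre and Rosa26 +/-, with 2 libraries given as ZNF750 wt/fl and 1 as wt/wt, so that the controls too hold Cre and, in part, a floxed allele. Both groups received 4-hydroxytamoxifen on days 4 to 7 or days 5 to 8 of age, tdTomato-expressing cells were sorted, and the libraries are labelled day 36. The Cre is expressed from Lrig1, which marks stem cells above the hair follicle bulge. No column can be tied to a single labelled sample, and whether libraries come from separate animals is not stated. All p-values therefore reflect only how far these libraries scatter. Libraries are called by the short names in the table, 1M, 2M, 3F and 6F for Zfp750_KO and 4F, 4M and 7F for control.

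Mast cells are resident leukocytes of the dermis that store histamine, heparin and serine proteases in granules and release them when IgE on their surface is cross-linked. They depend on KIT, the receptor for stem cell factor. Skin mast cells of the mouse belong to the connective tissue type, which stores the chymases encoded by Cma1 and Mcpt4, the tryptase encoded by Tpsb2 and carboxypeptidase A3 encoded by Cpa3. Fcer1a and Ms4a2 encode the alpha and beta chains of the high-affinity IgE receptor, and Hdc encodes histidine decarboxylase, which makes histamine. Kit is also expressed by melanocytes, and Hdc, Fcer1a and Ms4a2 by basophils. In the deposited table Kit is ENSMUSG00000005672 on chromosome 5, Cpa3 ENSMUSG00000001865 on chromosome 3, Cma1 ENSMUSG00000022225 and Mcpt4 ENSMUSG00000061068 on chromosome 14, and Tpsb2 ENSMUSG00000033825 on chromosome 17. Ms4a2 is ENSMUSG00000024680 on chromosome 19, Fcer1a ENSMUSG00000005339 on chromosome 1 and Hdc ENSMUSG00000027360 on chromosome 2.

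The promoters of the genes were read from the RefSeq table (build GRCm38.p6, 250 bases before to 50 bases after the start). In it 7 of the 8 genes matched by symbol. GATA2 is a transcription factor of mast cells, and its family binds AGATAA and its close variants. The variants searched were AGATAG with a final G, TGATAA with an initial T, and TGATAG with both. On either strand at least 1 such match was present in 6 of the 7 promoters, the exception being Kit, against 29.6% of 32544 distinct promoters of the same length. The 4 shown are those of 3 granule proteases and of the IgE receptor beta chain, with the GATA matches in capitals. A match on the opposite strand appears as its reverse complement.
Cpa3 promoter, chr3:20242132-20242431, minus strand: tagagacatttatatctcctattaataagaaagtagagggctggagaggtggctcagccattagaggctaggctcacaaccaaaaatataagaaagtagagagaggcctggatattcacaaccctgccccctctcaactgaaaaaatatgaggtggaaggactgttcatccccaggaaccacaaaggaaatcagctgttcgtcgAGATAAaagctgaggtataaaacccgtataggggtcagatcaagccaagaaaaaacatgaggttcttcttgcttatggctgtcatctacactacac
Cma1 promoter, chr14:55944626-55944925, minus strand: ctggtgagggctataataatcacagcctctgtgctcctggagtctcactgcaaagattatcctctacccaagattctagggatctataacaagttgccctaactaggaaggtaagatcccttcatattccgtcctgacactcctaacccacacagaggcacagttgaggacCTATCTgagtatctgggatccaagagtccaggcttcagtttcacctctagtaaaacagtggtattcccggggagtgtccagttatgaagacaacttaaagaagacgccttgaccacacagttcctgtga
Mcpt4 promoter, chr14:56062261-56062560, minus strand: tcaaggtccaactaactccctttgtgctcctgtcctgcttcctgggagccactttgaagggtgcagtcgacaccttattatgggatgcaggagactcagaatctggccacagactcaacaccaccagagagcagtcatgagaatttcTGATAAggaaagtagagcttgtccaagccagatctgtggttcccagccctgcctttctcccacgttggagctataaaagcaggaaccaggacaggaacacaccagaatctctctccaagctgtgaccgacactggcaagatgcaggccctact
Ms4a2 promoter, chr19:11623670-11623969, minus strand: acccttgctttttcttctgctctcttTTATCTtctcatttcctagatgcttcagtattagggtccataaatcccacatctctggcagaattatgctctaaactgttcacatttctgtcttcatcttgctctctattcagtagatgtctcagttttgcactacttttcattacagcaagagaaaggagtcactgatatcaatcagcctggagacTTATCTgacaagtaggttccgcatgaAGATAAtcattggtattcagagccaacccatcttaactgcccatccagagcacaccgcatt
The match begins 46 bases before the start in Cpa3, 79 bases before it in Cma1 and 103 bases before it in Mcpt4, and Ms4a2 held 3 matches. The letters CATGTG, an E-box of the kind that MITF binds, occurred on either strand in 1 of the 7 promoters (Fcer1a), against 14.2% of all promoters. TGTGGT, a RUNX motif, occurred in 4 of the 7, against 16.7%. These motifs were chosen after the values were known, and a match is a description of letters only.

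The 7 libraries held 9.09 to 17.1 M reads, recovered from the steps between low values, and differed widely in leukocyte RNA within both groups. Ptprc, the leukocyte antigen CD45, was at 40.1, 39.2, 1247 and 982 per M of the library total in the Zfp750_KO libraries 1M, 2M, 3F and 6F, against 4.46, 474 and 700 per M in the control libraries 4F, 4M and 7F. Control 4F thus stood apart from the other controls. The targeted gene Zfp750 averaged 33.5 ± 17.7 normalized counts in Zfp750_KO (SD, n = 4) and 149 ± 161 in control (SD, n = 3), with a two-sided exact permutation p = 0.0571, the smallest that 35 splits allow. Its log2 difference was -1.47, and -0.69 without control 4F. Lrig1 differed by 0.10 ± 0.74 (SE, limma adjusted p of 1.0). The X-linked RNA Xist, made in female cells, was at 3318 normalized counts in control 4M, against 6.24 and 0.966 in Zfp750_KO 1M and 2M and 46444 in control 7F, while the Y-linked Ddx3y was at 810 in control 4M. Control 4M therefore held transcripts of both sexes, and results are also given without it and without control 4F. Among the Zfp750_KO libraries, Ddx3y was at 950 and 979 in 1M and 2M, where Ptprc was low, and at 0 in 3F and 6F. Within Zfp750_KO sex and leukocyte content therefore cannot be told apart.

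All 8 genes were lowest in control 4F and highest in Zfp750_KO 3F, with Fcer1a at 0 in control 4M as well. Their summed level was 107, 119, 1225 and 891 per M in the Zfp750_KO libraries 1M, 2M, 3F and 6F, against 14.8, 470 and 746 per M in the control libraries 4F, 4M and 7F. The groups overlapped, and the range over libraries was 82.9-fold. The macrophage and monocyte list of 20 genes, summed the same way, spanned 558 to 11153 per M in Zfp750_KO and 206 to 6117 per M in control, and all 20 were detected well enough to be tested. In bulk RNA fewer mast cells and less RNA per mast cell cannot be told apart. What part leukocyte content plays in the levels of the 8 genes was not tested.

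**Figure D1:**
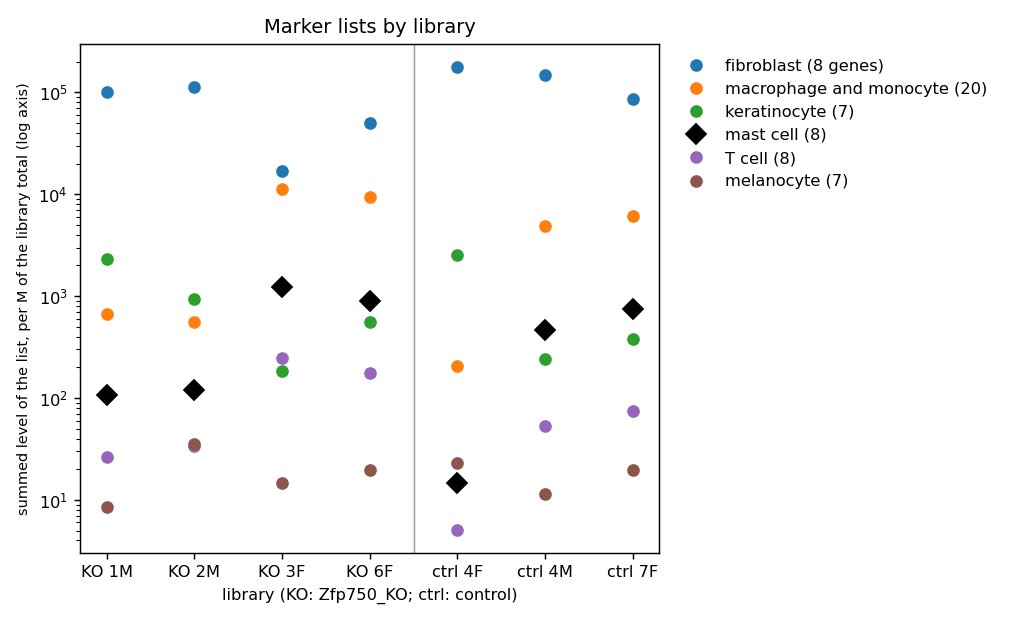
Summed level of 6 marker lists in each library, per M of the library total on a log axis, with the 4 Zfp750_KO libraries left of the 3 controls. The mast cell sum lies between 107 and 1225 in Zfp750_KO and between 14.8 and 746 in control, and is low where the macrophage and T cell sums are low.

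Kit, the stem cell factor receptor, had normalized counts of 152, 263, 1558 and 1045 in the Zfp750_KO libraries 1M, 2M, 3F and 6F, against 86.7, 608 and 970 in the control libraries 4F, 4M and 7F. Zfp750_KO 3F and 6F lay above every control, and Zfp750_KO 1M and 2M lay between control 4F and 4M. The means were 754 ± 667 (SD, n = 4) in Zfp750_KO and 555 ± 444 (SD, n = 3) in control. Kit was high relative to the proteases in control 4F. It stood at 53.3% to 94.8% of the Cpa3 value in Zfp750_KO and at 67.1% and 67.5% in control 4M and 7F, but at 509% in control 4F. Kit was not alone in this. Hdc was at 295% and Ms4a2 at 36.4% of Cpa3 in control 4F, where Cpa3 had 22 reads. In the other libraries they were at 60.6% to 126% and 5.47% to 9.06%. The Kit-expressing melanocytes were represented by 7 marker genes, 5 of them tested and none past the threshold. Their sum was 8.46, 14.7 and 19.9 per M in Zfp750_KO 1M, 3F and 6F and highest in Zfp750_KO 2M, against 22.9, 11.4 and 19.8 per M in the control libraries 4F, 4M and 7F. Dct, an enzyme of melanin synthesis, was at 29.1, 134, 51.8 and 39.9 normalized counts in the Zfp750_KO libraries 1M, 2M, 3F and 6F, against 89.0, 77.5 and 87.7 in the control libraries 4F, 4M and 7F. Tyrp1 and Pmel, also of the melanin pathway, were at 38.5 to 140 and 18.7 to 92.7 in Zfp750_KO, against 15.8 to 85.2 and 13.1 to 65.0 in control. In control 4F the melanocyte sum exceeded the sum of the 8 mast cell genes, and the part of melanocytes in the Kit level was not tested.

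Of the IgE receptor genes, Ms4a2 (beta chain) had normalized counts of 15.6, 25.1, 150 and 107 in the Zfp750_KO libraries 1M, 2M, 3F and 6F, against 6.19, 72.2 and 108 in the control libraries 4F, 4M and 7F. It was lowest in control 4F and highest in Zfp750_KO 3F, and the groups overlapped. Fcer1a (alpha chain) behaved differently. It had 23.9, 25.1, 54.1 and 28.2 normalized counts in the Zfp750_KO libraries 1M, 2M, 3F and 6F, against 0, 0 and 20.2 in the control libraries 4F, 4M and 7F. In normalized counts every Zfp750_KO library lay above every control, by a narrow margin over control 7F, unlike in the other 7 genes. Per M of the library total Zfp750_KO 1M (1.78) lay below control 7F (1.81), so that on that scale the Fcer1a groups overlapped too. In normalized counts all Zfp750_KO libraries lay above all controls in 3.19% of the genes tested.

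The Fcer1a values rest on few reads. There were 23, 26, 48 and 41 reads in the Zfp750_KO libraries 1M, 2M, 3F and 6F, against 0, 0 and 18 in the control libraries 4F, 4M and 7F. Per M reads, the exact Poisson 95% interval was 1.13 to 2.68 in Zfp750_KO 1M and 1.07 to 2.85 in control 7F, so the intervals overlap almost wholly. For the counts of 0 the upper bound of that interval was 0.216 per M in control 4F and 0.406 per M in control 4M, and a floor of 3 reads corresponds to 0.176 and 0.330 per M. Such intervals and floors cover counting error only. Relative to Ms4a2 the Fcer1a value was 153%, 100%, 36.1% and 26.3% in the Zfp750_KO libraries 1M, 2M, 3F and 6F, against 18.8% in control 7F and 0 in control 4F and 4M. Control 4M had 55 reads of Ms4a2 beside no read of Fcer1a, and control 4F had 8.

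Among the granule proteases the chymase gene Mcpt4 had the highest mean level per kb of exon in both groups. It had normalized counts of 321, 291, 3241 and 2582 in the Zfp750_KO libraries 1M, 2M, 3F and 6F, against 22.5, 1499 and 2245 in the control libraries 4F, 4M and 7F. Cma1, the other chymase gene, had 160, 148, 1570 and 1233 in the Zfp750_KO libraries 1M, 2M, 3F and 6F, against 4.65, 797 and 1193 in the control libraries 4F, 4M and 7F. The chymase genes, both on chromosome 14, kept a near constant ratio: Cma1 was 47.8% to 50.8% of Mcpt4 in Zfp750_KO and 53.2% in both control 4M and 7F, with 20.7% in control 4F from 6 and 29 reads. Of their 50-base stretches in GENCODE M21 transcripts, 5.38% for Cma1 and 5.48% for Mcpt4 also occur in another gene (Gm48934, and Cma2 or Mcpt9), so reads from these stretches are uncertain; Cma1 and Mcpt4 shared none with each other.

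Cpa3, the mast cell carboxypeptidase gene, had normalized counts of 285, 277, 2264 and 1357 in the Zfp750_KO libraries 1M, 2M, 3F and 6F, against 17.0, 906 and 1436 in the control libraries 4F, 4M and 7F. Tpsb2, a tryptase gene, had 305, 190, 1623 and 1240 in the Zfp750_KO libraries 1M, 2M, 3F and 6F, against 7.74, 865 and 1243 in the control libraries 4F, 4M and 7F. In each of the 4 proteases Zfp750_KO 3F was highest, control 7F was close to Zfp750_KO 6F, and Zfp750_KO 1M and 2M lay between control 4F and control 4M. Hdc, the histamine-synthesizing enzyme, had 173, 350, 2727 and 1708 in the Zfp750_KO libraries 1M, 2M, 3F and 6F, against 50.3, 857 and 1153 in the control libraries 4F, 4M and 7F. Zfp750_KO 3F and 6F lay above every control for Hdc too, and the groups overlapped.

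**Figure D2:**
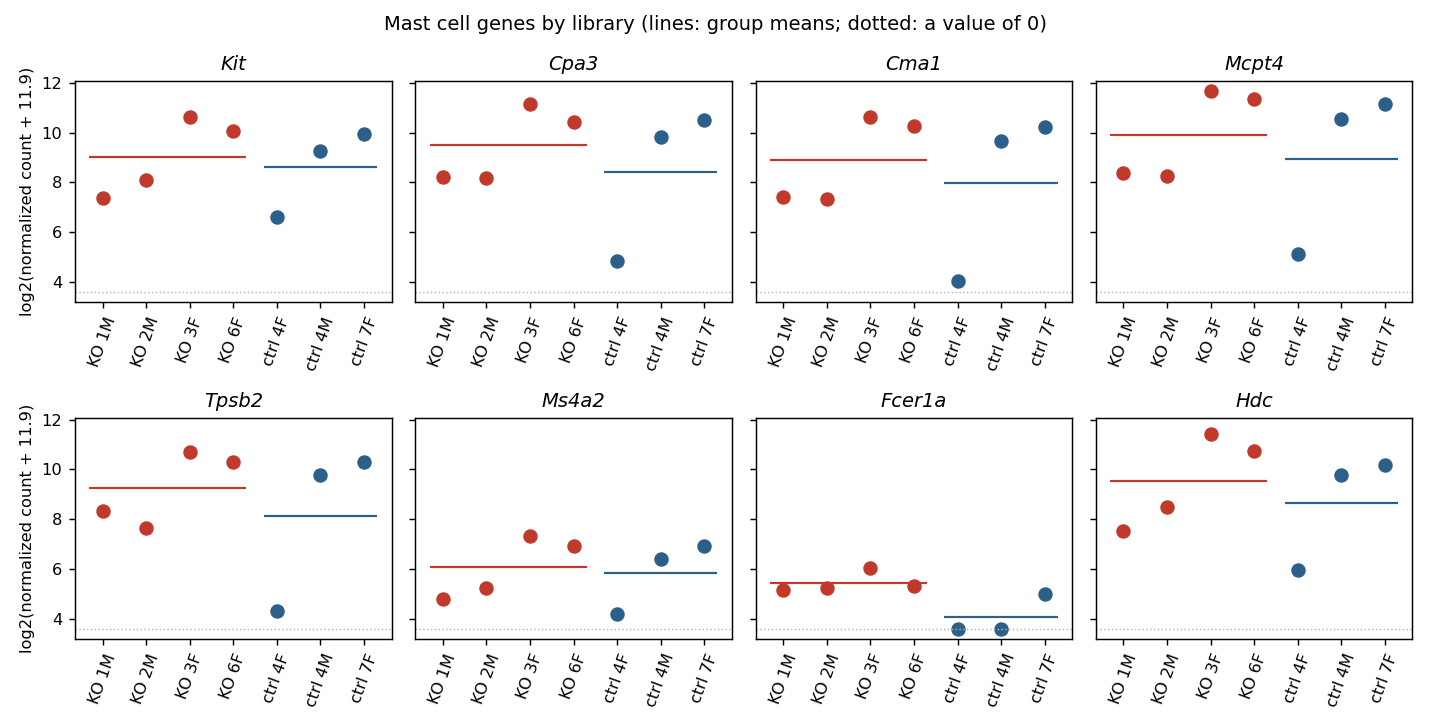
Each gene in each library as log2(normalized count + 11.9), with Zfp750_KO libraries (red) left of controls (blue), group means as lines and the level of a 0 dotted. On this scale the groups overlap in 7 of the 8 genes, and Fcer1a is the gene in which control 4F and 4M sit at 0.

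Per kb of merged exon length in GENCODE M21, the level per M averaged 134 ± 132 in Zfp750_KO and 98.5 ± 90.5 in control for Mcpt4. For Cma1 it was 65.9 ± 64.6 and for Cpa3 66.0 ± 63.5 in Zfp750_KO, against 53.1 ± 49.2 and 47.2 ± 44.0 in control (SD, n = 4 and n = 3 throughout). Tpsb2 averaged 48.1 ± 42.9 in Zfp750_KO and 38.5 ± 35.1 in control. Hdc averaged 47.7 ± 48.1 in Zfp750_KO and 24.9 ± 21.2 in control. Kit stood lower, at 13.1 ± 12.3 in Zfp750_KO and 9.14 ± 7.62 in control, and the receptor chains lowest, Ms4a2 at 2.42 ± 2.24 in Zfp750_KO and 1.91 ± 1.64 in control, and Fcer1a at 2.86 ± 1.51 in Zfp750_KO and 0.603 ± 1.04 in control. These SDs hold the differences between libraries that the genes share, so the order was read within each library. Mcpt4 lay above Cma1, and Kit above both receptor chains, in all 7 libraries. Cpa3 lay above Cma1, Tpsb2 above Hdc and Ms4a2 above Fcer1a in 4 of the 7 libraries each, so those neighbours had no fixed order. Mcpt4 ranked first in 6 of the 7 libraries and second, after Hdc, in control 4F.

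Compared between the groups, none of the 8 genes passed an adjusted p of 0.05 in limma over all genes, and 0% of the 18141 genes tested were called in either direction. The log2 difference, Zfp750_KO minus control on the log2(value + 11.9) scale, was above 0 for all 8 genes, as it was for 53.3% of all genes tested. The median was 0.95 over the 8 genes and 0.02 over all genes. A shift above 0 was not particular to mast cell genes. The median was 1.05 over 8 T cell genes, all above 0. It was 0.39 over the 20 macrophage and monocyte genes, with 17 above 0. Over the 17 tested genes of a wider mast cell list it was 0.25, and over 3 basophil genes -0.12. Because the 8 mast cell genes move together over the same libraries, their shared sign is not independent evidence. Cpa3 differed by 1.09 ± 1.44 (SE), Tpsb2 by 1.11 ± 1.51, Mcpt4 by 0.97 ± 1.60, Cma1 by 0.93 ± 1.61, Hdc by 0.91 ± 1.29, Kit by 0.42 ± 1.03 and Ms4a2 by 0.23 ± 0.86, each with an adjusted p of 1.0. For Cpa3 the 95% interval ran from -2.60 to 4.78, so that a difference of several fold in either direction lay inside it. Fcer1a differed by 1.38 ± 0.43 (SE), with an adjusted p of 0.584 and a 95% interval of 0.28 to 2.48. Both intervals were taken with 5 residual degrees of freedom, fewer than limma used for its p-values, and are therefore wider than limma's own. Fcer1a was the 1 of the 8 genes under an unadjusted p of 0.05, as were 5.83% of all genes tested.

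These differences hung on control 4F. Without it, 7 of the 8 log2 differences were below 0, from -0.43 for Hdc and -0.58 for Kit to -1.03 for Cma1, and Fcer1a alone was above 0 at 1.14 (adjusted p of 0.626). Without control 4M, the library with transcripts of both sexes, all 8 were above 0, from 0.52 for Ms4a2 to 1.94 for Tpsb2, and Fcer1a was at 1.14 with an adjusted p of 1.0. Fcer1a was between 1.14 and 1.86 in the 7 fits without 1 library, with adjusted p-values of 0.606 to 1.0. Its size depends on the pseudocount because 2 controls are at 0: it was 2.53 with a pseudocount of 0.25 per M and 0.57 with 4 per M.

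With the macrophage score (the mean log2 level of the 20 macrophage and monocyte genes) as a covariate, limma called 1.35% of all genes higher and 2.13% lower at an adjusted p under 0.05, and again none of the 8. All 8 log2 differences were above 0, as were 52.5% of those of all genes tested, and at an unadjusted p under 0.05 Fcer1a was the 1 of the 8 that was higher, against 8.19% of all genes. The SE of the 7 genes other than Fcer1a was then between 0.24 and 0.46, and the median difference was 0.58 over the 8 genes and 0.02 over all genes. The log2 difference was 0.73 ± 0.40 (SE) for Cpa3, 0.74 ± 0.46 for Tpsb2, 0.58 ± 0.29 for Hdc, 0.57 ± 0.35 for Mcpt4, 0.52 ± 0.39 for Cma1, 0.16 ± 0.25 for Kit and 0.02 ± 0.24 for Ms4a2, with adjusted p-values of 0.349 to 0.986. Fcer1a was at 1.32 ± 0.35 with an adjusted p of 0.0755. It passed in 1 of the 7 such fits without 1 library, that without control 7F (adjusted p of 0.0492), and was at 0.92 with an adjusted p of 0.283 without control 4M. Without control 4F the score fit gave 0.056 for Cpa3, -0.16 for Cma1, -0.04 for Mcpt4 and -0.09 for Tpsb2.

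**Figure D3:**
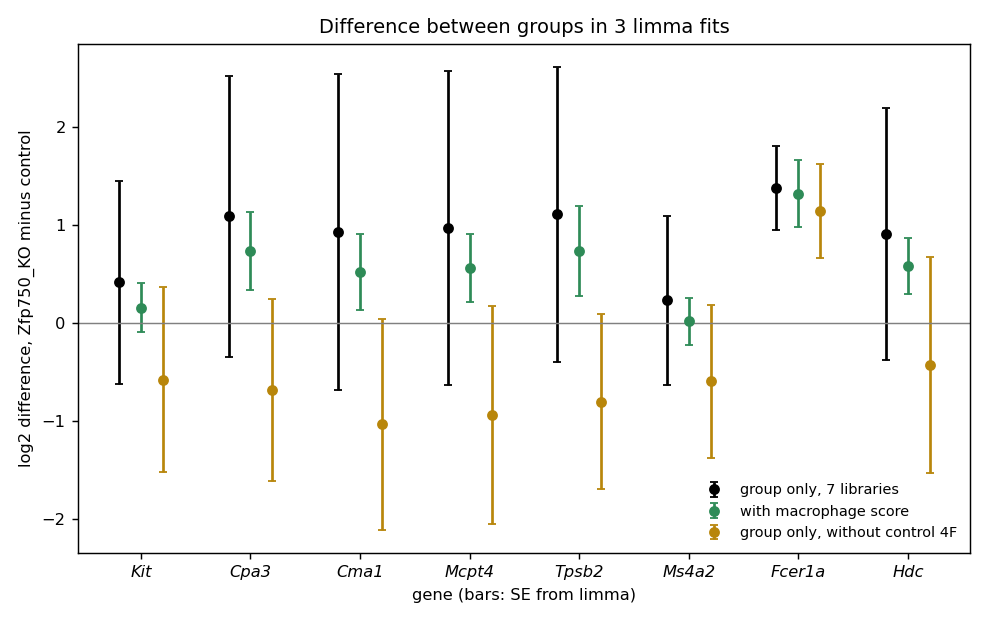
Log2 difference between Zfp750_KO and control for each gene, with SE bars, in 3 limma fits: group only, with the macrophage score, and group only without control 4F. Leaving out control 4F moves 7 of the 8 genes below 0, whereas Fcer1a stays between 1.14 and 1.38.

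To set mast cell transcripts against a leukocyte transcript, each gene was divided by Ptprc in the same library. Ptprc is a single gene, so the ratio is not the mast cell share of leukocyte RNA. Cpa3 stood at 53.0%, 53.6%, 16.9% and 13.2% of the Ptprc value in the Zfp750_KO libraries 1M, 2M, 3F and 6F, against 28.9%, 16.0% and 18.3% in the control libraries 4F, 4M and 7F. Mcpt4 stood at 59.8%, 56.3%, 24.1% and 25.2% in Zfp750_KO, against 38.2%, 26.5% and 28.6% in control, in the same library order. Zfp750_KO 1M and 2M lay above every control for Cpa3, Mcpt4, Cma1 and Tpsb2. Zfp750_KO 3F and 6F lay at or below control 4M and 7F for Mcpt4, Cma1 and Tpsb2. The 8 genes summed to 267%, 304%, 98.2% and 90.7% of Ptprc in Zfp750_KO 1M, 2M, 3F and 6F. In the control libraries 4F, 4M and 7F the sum was 332%, 99.2% and 107%. It was thus high where Ptprc was low, and highest in control 4F. Tpsb2 was 56.7% and 36.8% of Ptprc in Zfp750_KO 1M and 2M and 12.1% in both Zfp750_KO 3F and 6F, against 13.2%, 15.3% and 15.8% in the control libraries 4F, 4M and 7F. Kit was at 147%, Hdc at 85.5% and Ms4a2 at 10.5% of Ptprc in control 4F, where Ptprc was lowest, above their values in every other library. The log2 ratio to Ptprc differed between the groups by 0.45 for Cpa3, 0.56 for Cma1, 0.29 for Mcpt4, 0.63 for Tpsb2, 0.13 for Hdc, -0.40 for Kit, -0.43 for Ms4a2 and 2.68 for Fcer1a. Two-sided exact permutation p-values were 0.229 for Fcer1a and 0.4 to 0.8 for the other 7, where 35 splits allow no p below 0.0571. Without control 4F the Kit and Ms4a2 differences were above 0, at 0.82 and 0.63. The Fcer1a ratio rests on the controls at 0. Its log2 difference was 0.60 with a pseudocount of 1 per M, 0.98 against the macrophage score, 0.94 without control 4M and 4.22 without control 4F.

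**Figure D4:**
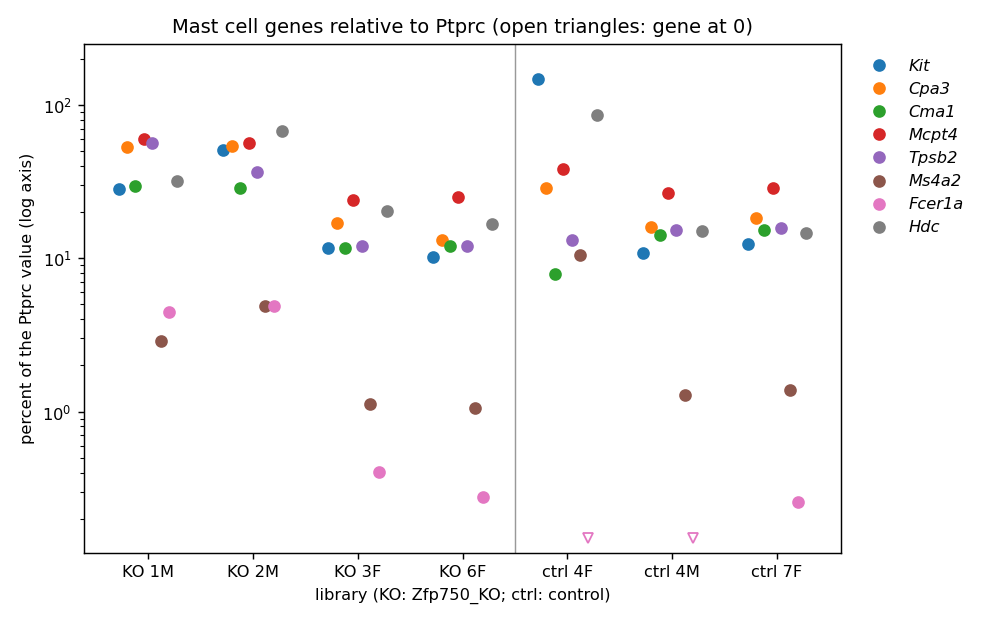
Each gene as a percent of the Ptprc value in the same library, on a log axis, with Zfp750_KO libraries left of controls and open triangles for a gene at 0. Cpa3 is at 53.0% and 53.6% in Zfp750_KO 1M and 2M and at 13.2% to 28.9% in the other 5 libraries, and Kit reaches 147% in control 4F.

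The genes whose course was most like that of the 8 were found by a root mean square distance. It was taken between log2 levels over the 7 libraries, each centred on its own mean. Predicted genes, such as those with Gm or Rik names, were left out of the ranking. The nearest were Samsn1 (distance 0.13), Gvin2 (0.21), Spn (0.21), Cyp11a1 (0.22), Srgn (0.22), Il2rg (0.22), P2ry10 (0.23), Itga4 (0.25), Tyrobp (0.25) and Cd52 (0.30). Samsn1, the nearest, had 61.3, 72.4, 645 and 335 normalized counts in the Zfp750_KO libraries 1M, 2M, 3F and 6F, against 3.87, 219 and 353 in the control libraries 4F, 4M and 7F. Srgn encodes serglycin, the proteoglycan core of mast cell granules, and Il2rg a receptor chain shared by cytokines of lymphocytes. The 8 genes themselves lay 0.33 (Hdc) to 1.32 (Fcer1a) from their mean course, and Ptprc lay 1.07 from it. The median distance was 0.75 over the 17 tested genes of the wider mast cell list, 0.93 over the macrophage and monocyte genes, 0.94 over the T cell genes and 1.69 over all genes tested. All these distances share the same 7 libraries and describe them only.

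A wider list of 20 mast cell genes had 17 tested, of which none rose or fell at an adjusted p of 0.05 with the group alone. Of the 17 log2 differences 14 were above 0, against 53.3% of all genes, and their median was 0.25. Ltc4s, Mrgprb2 and Tpsg1 lay below 0, at -0.42, -0.27 and -0.19. Mrgprb1, an orphan receptor gene of the Mrgprb family, had 76.9, 127, 1151 and 812 normalized counts in the Zfp750_KO libraries 1M, 2M, 3F and 6F, against 10.8, 432 and 775 in the control libraries 4F, 4M and 7F. Gata2 followed the same course, with 64.5, 98.5, 639 and 592 in Zfp750_KO, against 25.5, 324 and 425 in control. Both overlapped between the groups, like 7 of the 8 genes. Mitf, a transcription factor of mast cells and melanocytes, varied little, at 675 to 1093 in Zfp750_KO and 794 to 1035 in control. Ndst2, an enzyme of heparin synthesis, was at 343 to 1173 in Zfp750_KO and 255 to 955 in control. Il1rl1, the IL-33 receptor, was at 654, 1014, 1111 and 972 in the Zfp750_KO libraries 1M, 2M, 3F and 6F, against 11.6, 725 and 998 in the control libraries 4F, 4M and 7F, a log2 difference of 1.84 ± 1.21 (SE, adjusted p of 1.0). Its level in Zfp750_KO 1M and 2M was thus near that of the libraries with far more Ptprc.

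Tph1, an enzyme of serotonin synthesis found in mast cells, had 69.7, 45.4, 214 and 94.4 normalized counts in the Zfp750_KO libraries 1M, 2M, 3F and 6F, against 0, 11.8 and 58.5 in the control libraries 4F, 4M and 7F. In normalized counts Tph1 was below control 7F only in Zfp750_KO 2M. Per M of the library total it was also slightly below control 7F (5.22) in Zfp750_KO 1M (5.20). Its log2 difference was 1.92 ± 0.68 (SE, adjusted p of 0.71), and with the macrophage score it rose by 1.78 ± 0.39 (adjusted p of 0.041), the 1 of 17 genes of the list that passed in that fit, in which 1.35% of all genes were called higher. The call was lost without Zfp750_KO 1M, 2M or 3F or without control 4M, with adjusted p-values of 0.0936 to 0.185.

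Markers of the mucosal type of mast cell were near 0. Mcpt1 had 15, 2, 1 and 0 reads in the Zfp750_KO libraries 1M, 2M, 3F and 6F and Mcpt2 had 22, 0, 1 and 0, against 0 for both in every control. Only Zfp750_KO 1M held more than 2 reads of either. Basophils were represented by 5 genes, 3 of them tested and none past the threshold. The basophil proteases Mcpt8 and Prss34 had 0 to 16 and 0 to 3 reads in Zfp750_KO, against 0 to 1 and 0 to 2 in control, the most being the 16 reads of Mcpt8 in Zfp750_KO 6F, with 5 in Zfp750_KO 3F. The part of basophils in the levels of Hdc, Fcer1a and Ms4a2 was not tested. Itga2, Il3ra and Clec12a, which other cells also express, were at 119 to 299, 118 to 282 and 7.73 to 532 normalized counts in Zfp750_KO, against 256 to 303, 114 to 305 and 0.774 to 224 in control.

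Of the 14 genes of IgE receptor signalling none passed with the group alone or with the macrophage score, and 11 of the 14 log2 differences with the group alone were above 0, against 53.3% of all genes. Fcer1g, the gamma chain that mast cells share with macrophages, had 73.8, 64.7, 1239 and 1055 normalized counts in the Zfp750_KO libraries 1M, 2M, 3F and 6F, against 12.4, 579 and 659 in the control libraries 4F, 4M and 7F. Gab2, an adaptor of KIT and IgE receptor signals in mast cells that other cells also express, had 1150, 1158, 1418 and 1155 in Zfp750_KO, against 476, 898 and 926 in control, in the same library order. The Gab2 groups did not overlap, as in the 3.19% of all genes with every Zfp750_KO library above every control, and its log2 difference was 0.72 ± 0.26 (SE, adjusted p of 0.738). Fyn, a Src family kinase, was at 815 to 1013 in Zfp750_KO and 1008 to 1755 in control, with a log2 difference of -0.48 ± 0.22 (SE, adjusted p of 0.907). Plcg1, a phospholipase, differed by 0.01 ± 0.25 (SE, adjusted p of 1.0).

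Of 10 genes for Kit ligand and cytokines that act on mast cells, 7 were tested and none passed in either fit. Kitl, stem cell factor, had 1675, 1442, 349 and 440 normalized counts in the Zfp750_KO libraries 1M, 2M, 3F and 6F, against 681, 529 and 633 in the control libraries 4F, 4M and 7F, so that Zfp750_KO 1M and 2M lay above and Zfp750_KO 3F and 6F below every control. Its log2 difference was 0.35 ± 0.57 (SE, adjusted p of 1.0). Il33, an alarmin that activates mast cells, was at 160 to 368 in Zfp750_KO and 86.7 to 269 in control. Cxcl12 and Tgfb1, with the highest normalized counts of the list, were at 3394 to 4795 and 1489 to 3724 in Zfp750_KO, against 3415 to 4848 and 876 to 2069 in control.

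Receptors for mast cell mediators and enzymes of histamine breakdown made up 11 genes, of which 8 were tested and none passed with the group alone. Hrh1, the histamine H1 receptor, had 22.9, 22.2, 15.8 and 18.6 normalized counts in the Zfp750_KO libraries 1M, 2M, 3F and 6F, against 53.4, 106 and 112 in the control libraries 4F, 4M and 7F. All Zfp750_KO libraries lay below all controls, as in 3.91% of the genes tested, and the log2 difference was -1.64 ± 0.30 (SE, adjusted p of 0.21). With the macrophage score Hrh1 fell by 1.66 ± 0.27 (adjusted p of 0.0128), and the call was lost without control 4M (0.0889) or control 7F (0.086). F2rl1, the receptor PAR2 that tryptase can activate, had 1602, 1700, 132 and 140 in Zfp750_KO, against 397, 81.4 and 119 in control, in the same library order. With the group alone F2rl1 differed by 1.53 ± 1.08 (SE, adjusted p of 1.0). With the score F2rl1 rose by 1.80 ± 0.37 (adjusted p of 0.034), a call lost in 4 of the 7 fits without 1 library, those without Zfp750_KO 1M, 2M or 3F or control 4M, with adjusted p-values of 0.0582 to 0.15. Without control 4F the score fit gave 1.19 for F2rl1. Zfp750_KO 1M and 2M lay above every control, while Zfp750_KO 3F and 6F lay above control 4M and 7F and below control 4F. The 2 calls among 8 genes stand beside 1.35% of all genes called higher and 2.13% called lower in that fit. Cysltr1 and Ltb4r1, receptors for leukotrienes, were at 16.4 to 717 and 29.0 to 359.5 normalized counts in Zfp750_KO, against 13.2 to 452 and 13.2 to 237 in control, and followed Ptprc in being lowest in control 4F.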

How the data were processed

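RNA-seq was run on bulk RNA of sorted cells (PureLink extraction, NEBNext Ultra II libraries, per the labels' protocols). TopHat2 2.1.0 and Partek 9.0.20.0202 are named per the submitters' processing notes; neither the genome build nor a strand setting is given in the sources used. The deposited values are a signal, normalized counts per the file headers: in each column 1 read is worth a fixed step, and 78.0% to 79.6% of values below 200 reads came out whole (tolerance 0.02 reads), as were all 56 values of the 8 genes, and reads are values divided by that step. Totals were 9.09 to 17.1 M reads. Since other values were fractional, no count test was run.

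Columns were assigned to groups by their names, without replicate numbers. Values were analysed as log2(value + 11.9), a pseudocount of 1 per M of the median column total, which understates changes of low genes. Genes with at least 1 per M in at least 3 libraries were tested with limma 3.58.1 in R 4.3.3 (group as the only term, trend, Benjamini-Hochberg over 18141 genes), also with a macrophage score, and tested on simulated data. Single values were compared by two-sided exact permutation over 35 splits in Python 3.11.15. The 8 genes and all lists were chosen with earlier results of these data known. Tph1, Hrh1, Mrgprb1, Gata2, Ltc4s, Mrgprb2, Tpsg1, Fcer1g, Il33, Xist, Ddx3y and the mucosal and basophil proteases are named after their values were seen. The others follow a rule. The 8 genes, Zfp750, Lrig1 and Ptprc are always named. Each list gives up to 4 genes past the threshold, or otherwise the 3 with the highest mean. The 10 nearest in course are named, with predicted genes left out. Alternatives were other pseudocounts, filters, scalings, moderation, weights and covariates, and leaving out each library.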

Additional observations from a re-analysis of the deposited data

How the results depend on the processing

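None of the 8 genes passed in any alternative with all 7 libraries, and Fcer1a in 1 fit with the macrophage score and 1 library left out. The count of called genes over the whole table was 0 with the group alone and under each other pseudocount, filter and scaling, with robust moderation, with sex as a term and without any 1 library. It was 3795 with array weights and 632 with the macrophage score, 145 to 1541 in the score fits without 1 library; the cause was not tested. With array weights 7 genes were below 0: Kit at -1.51, Cpa3 at -1.55, Cma1 at -2.06, Mcpt4 at -2.02, Tpsb2 at -1.64, Ms4a2 at -1.36 and Hdc at -1.42, and Ptprc was at -2.91. Fcer1a was not tested with the filter of 5 per M.

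Over the 7 fits without 1 library the log2 difference ran from -0.58 to 1.08 for Kit, -0.68 to 2.14 for Cpa3, -1.03 to 2.06 for Cma1, -0.94 to 2.07 for Mcpt4, -0.80 to 2.20 for Tpsb2, -0.59 to 0.77 for Ms4a2, -0.43 to 1.69 for Hdc, -1.41 to 1.99 for Ptprc and -0.28 to 0.64 for Lrig1 (0.10 with all libraries, -0.073 with sex as a term). With the score the ranges were -0.08 to 0.37 for Kit, 0.056 to 1.12 for Cpa3, 0.23 to 0.83 for Hdc, -0.16 to 0.88 for Cma1, -0.04 to 0.89 for Mcpt4, -0.09 to 1.14 for Tpsb2, -0.14 to 0.15 for Ms4a2 and -0.16 to 0.48 for Ptprc. For the ratio to Ptprc without 1 library they were -1.07 to 0.82 for Kit, -0.98 to 0.63 for Ms4a2, -0.30 to 0.97 for Hdc, 0.14 to 0.81 for Cpa3, 0.33 to 0.78 for Cma1, 0.068 to 0.50 for Mcpt4, 0.20 to 0.95 for Tpsb2 and 0.94 to 4.22 for Fcer1a; as levels per M, Kit and Ms4a2 were at 0.44 and 0.25, and against the macrophage score Kit was at 0.017. For Zfp750 the range was -1.92 to -0.69.

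The score fits without 1 library, and the other denominators and pseudocount of the ratio, were chosen after seeing the data. No paired analysis was possible because the columns carry no replicate numbers of the titles. Depth limits Fcer1a, Mcpt1, Mcpt2 and every protease in control 4F, where 6 to 29 reads stand behind each.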
